A study of Mus musculus with 18 samples.

Results

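The genes described here are 42 interferon-stimulated antiviral genes, taken from a list of names and found by their symbols in a table of 55491 genes. All 42 were in the table, and all 42 passed the filter on low counts in every comparison, in which between 13840 and 16619 genes were tested. They were followed in B cells from the spleen and the Peyer's patches (PPs), the lymphoid tissue of the gut wall, by bulk RNA-Seq. All donors were female BALB/cJ mice of 10 to 12 weeks with the OVA-alum model of food allergy, in which ovalbumin (OVA, 20 μg) and the adjuvant alum (1 mg) had been injected into the peritoneum at day 0 and again at day 14. At days 28 and 42 the mice received an intravenous injection of 100 μL PBS, of 100 μg soluble OVA, or of 2.5 mg OVA NPs, which are nanoparticles that carry OVA inside. B cells were taken at day 44, before any oral food challenge, by magnetic negative selection, in which the other cell types are bound and removed. There were 3 libraries in each of the 6 combinations of tissue and treatment, labelled as biological replicates. The labels do not say whether a library came from 1 mouse or from several, and there was no group of mice without sensitization, so all levels are those of sensitized mice.

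Interferons are secreted proteins that signal through paired receptors and their kinases, which are JAK1 and TYK2 for type I and type III interferons. Type I and type III interferons lead to the assembly of a transcription factor that holds STAT2 and IRF9, which binds a short repeat of GAAA in the promoters of its target genes. The products of those genes include sensors of viral RNA and DNA, enzymes that degrade or modify viral RNA, proteins that block viral entry, replication or budding, and regulators that amplify or end the response. B cells hold low levels of many of these transcripts without any infection, and a few of the genes also have roles in cell growth and chromatin.

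The repeat was looked for in promoter sequences from RefSeq (build GRCm38.p6), each running from 250 bases before to 50 bases after the start of a gene. The letters searched were GAAA, any pair of bases, and GAAA again, on both strands (on the other strand TTTC, any pair, TTTC), and matches can overlap where the repeat runs on. The promoter table held 32 of the 42 genes. At least 1 match stood in 15 of these 32 genes (46.9%), against 1079 of all 27025 genes in the table (3.99%). Counted by promoter, 16 of 38 (42.1%) held a match, against 1131 of 32851 (3.44%). The 15 genes were *Stat2*, *Ifih1*, *Ddx58*, *Ddx60*, *Ifit1*, *Ifit3*, *Ifit3b*, *Isg15*, *Trim30a*, *Oas1a*, *Oas3*, *Eif2ak2*, *Rsad2*, *Bst2*, and *Slfn5*. A match is a description of the letters and does not show that a factor binds there. The 4 sequences printed here belong to the members with a match that had the smallest adjusted p in any comparison of treatments, and the capitals mark the match. *Ddx58* encodes RIG-I, a sensor of viral RNA, and its promoter is chr4:40239776-40240075 on the minus strand, with the match beginning at base 3 after the start. *Trim30a*, a ubiquitin ligase gene, has the first of its promoters in the table at chr7:104465144-104465443 on the minus strand, with the match beginning 36 bases before the start. The promoter of *Stat2* is chr10:128270248-128270547 on the plus strand, and its match begins 222 bases before the start. *Ifih1*, which encodes the RNA sensor MDA5, has its promoter at chr2:62646206-62646505 on the minus strand, with the match at base 33 after the start.
Ddx58 promoter: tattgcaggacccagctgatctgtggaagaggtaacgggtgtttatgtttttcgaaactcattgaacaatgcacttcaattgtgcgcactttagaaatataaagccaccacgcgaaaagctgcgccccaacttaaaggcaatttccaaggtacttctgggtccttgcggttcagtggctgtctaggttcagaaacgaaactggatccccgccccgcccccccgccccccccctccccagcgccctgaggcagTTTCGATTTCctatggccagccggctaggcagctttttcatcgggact
Trim30a promoter: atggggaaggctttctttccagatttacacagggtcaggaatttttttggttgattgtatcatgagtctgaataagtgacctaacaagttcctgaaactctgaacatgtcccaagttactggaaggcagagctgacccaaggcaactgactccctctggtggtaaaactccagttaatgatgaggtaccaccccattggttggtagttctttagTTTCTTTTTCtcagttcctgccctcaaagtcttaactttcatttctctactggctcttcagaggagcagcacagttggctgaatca
Stat2 promoter: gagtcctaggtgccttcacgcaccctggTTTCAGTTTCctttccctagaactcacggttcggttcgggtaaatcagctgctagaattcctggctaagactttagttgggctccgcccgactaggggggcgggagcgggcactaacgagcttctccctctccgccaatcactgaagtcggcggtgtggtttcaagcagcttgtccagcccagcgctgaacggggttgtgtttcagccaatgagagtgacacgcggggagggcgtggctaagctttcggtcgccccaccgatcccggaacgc
Ifih1 promoter: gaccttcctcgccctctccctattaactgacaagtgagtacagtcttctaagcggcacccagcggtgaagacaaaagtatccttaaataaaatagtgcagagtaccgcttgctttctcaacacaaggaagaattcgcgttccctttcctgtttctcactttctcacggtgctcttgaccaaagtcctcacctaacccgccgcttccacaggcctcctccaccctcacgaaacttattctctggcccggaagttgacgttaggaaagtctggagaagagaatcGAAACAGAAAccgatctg

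Library totals ran from 14177253 counts in PP PBS replicate 2 to 30052297, with a median of 22341270. Levels are given as CPM, reads counted in a gene scaled to a common library total after normalization with TMM factors over all 18 libraries, and 3 counts corresponded to 0.105 to 0.220 CPM, for counting error only. No pair of replicates held the same values. The counts of mitochondrial genes took 2.82% to 3.41% of the spleen libraries, 4.97% to 7.67% of the PP libraries from mice given PBS or soluble OVA, and 9.08% to 9.80% of the PP libraries from OVA NP–treated mice. The summed level of 8 B cell genes was 9091 to 10745 CPM in spleen and 6916 to 8686 CPM in PPs, and that of 8 T cell genes was at most 38.2 CPM. Epithelial and monocyte or macrophage transcripts were also present, and their levels are given beside some of the results below. In bulk RNA, fewer cells of a type and less RNA per cell cannot be told apart.

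Set against the length of their exons, the members covered a wide range. In the spleen of PBS controls, *Samd9l* had the highest level per kilobase, at 148 CPM per kb, followed by *Ifi27l2a* at 79.2, *Sp100* at 62.5, *Sp140* at 42.1, and *Ifi35* at 28.7 CPM per kb. The lowest were *Rsad2* at 0.121 and *Oasl2* at 0.108 CPM per kb. In the PPs of PBS controls, *Samd9l* was again the highest at 66.1 CPM per kb and *Oasl2* the lowest at 0.327 CPM per kb. Several members are neighbors in the genome (GRCm38), including *Ifit2*, *Ifit3*, *Ifit3b*, and *Ifit1* within 99.3 kb of chromosome 19, *Oas2*, *Oas3*, and *Oas1a* within 177 kb of chromosome 5, *Parp14*, *Dtx3l*, and *Parp9* within 140 kb of chromosome 16, and *Sp140* and *Sp100* within 110 kb of chromosome 1. *Ifit3* and *Ifit3b*, the *Oas* genes, *Mx1* and *Mx2*, and *Sp100* and *Sp140* are related in sequence, so their reads may have been shared between them. Exons of *Sp140*, *Ifi35*, *Slfn5*, *Irf7*, *Dhx58*, *Dtx3l*, and *Parp9*, among others, overlap a gene on the opposite strand, and whether the counting used strand is not given in the sources used here.

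**Figure D1:**
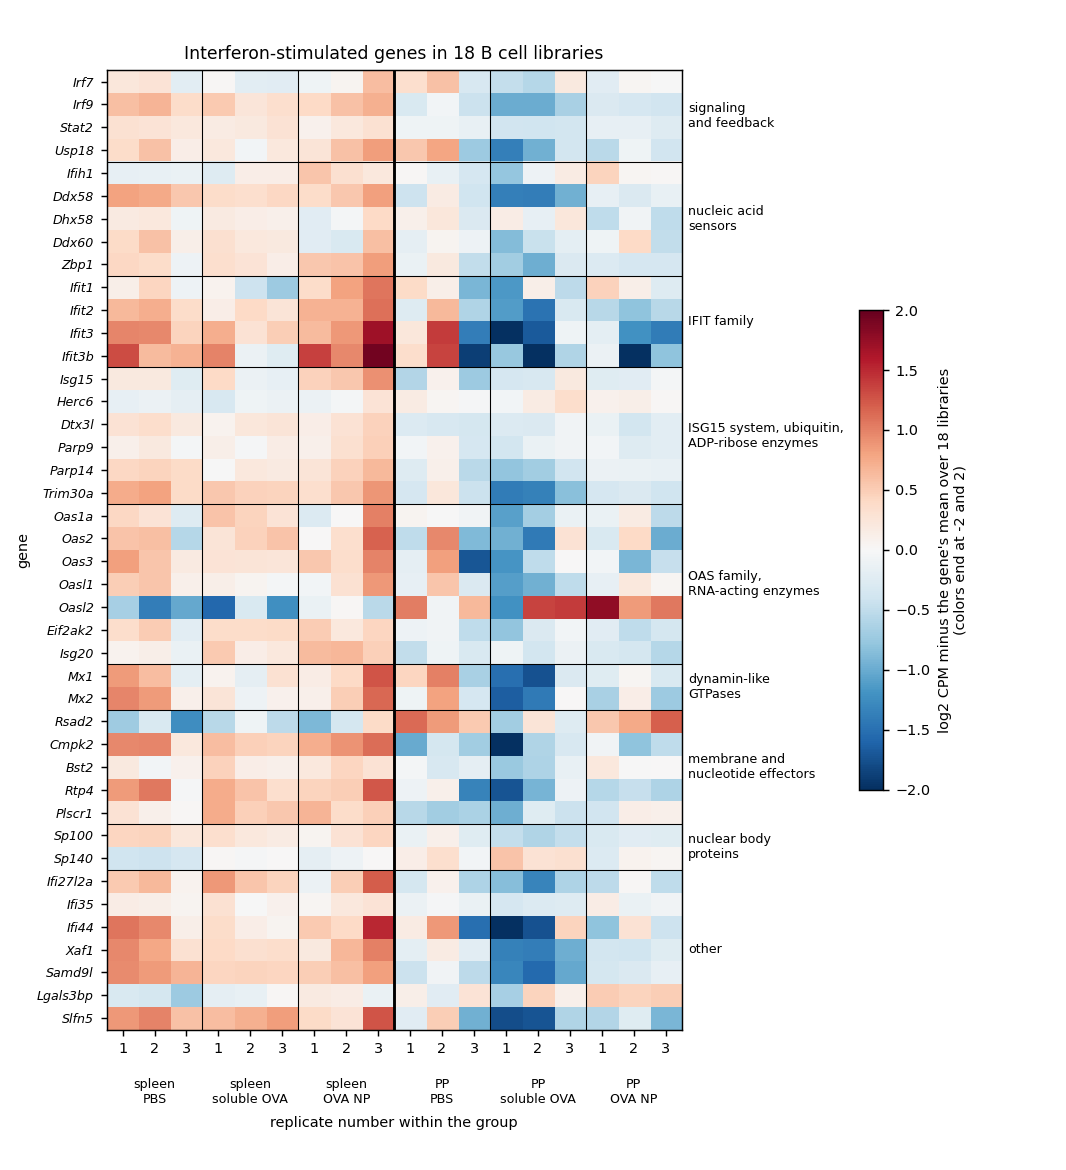
Each cell is the log2 CPM of a gene (rows, in 9 groups by role) in a library (columns, 3 for each group of mice), minus the mean of that gene over all 18 libraries, with colors ending at -2 and 2. The spleen libraries on the left are mostly red and those of PPs mostly blue, with the darkest blue in the PPs of soluble OVA–treated mice, and *Sp140*, *Lgals3bp*, *Rsad2*, and *Oasl2* run the other way.

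The first question was whether the treatments changed these genes in PPs. Soluble OVA lowered 8 of the 42 genes compared with PBS and raised 0, while 13.9% of all genes tested were called lower and 13.5% higher. A gene was called where the adjusted p was under 0.05 and the absolute log2 fold change above 0.25. The 8 genes were *Xaf1*, a proapoptotic gene, *Ddx58*, *Trim30a*, *Samd9l*, which encodes a growth-restraining and antiviral protein, *Oasl1*, *Irf9*, *Sp100*, and *Stat2*. Their log2 fold changes ran from -1.16 for *Xaf1* to -0.29 for *Stat2*. Over all 42 genes the median log2 fold change was -0.45, against -0.02 over all genes tested. Of the 42 genes 34 lay below 0 and 8 above, where 51.6% of all genes lay below and 48.4% above. The 3 soluble OVA libraries lay wholly below the 3 PBS libraries in 12 members and wholly above in 0, where the share over all genes was 23.0% below and 22.1% above. By role, the signaling genes had 2 of 4 called, the genes in no other class 2 of 7, the nucleic acid sensors 1 of 5, the nuclear body proteins 1 of 2, the ISG15 system with the ubiquitin and ADP-ribose enzymes 1 of 6, the OAS family and RNA-acting enzymes 1 of 7, and the IFIT family, the dynamin-like GTPases, and the membrane and nucleotide effectors 0. The IFIT genes and the GTPases *Mx1* and *Mx2* had large differences of -1.59 to -0.40 and of -1.45 and -1.04 on the log2 scale that did not pass the test, and their replicates spread widely. Germinal center B cell genes moved with this comparison, 7 of 8 being called higher, and their summed level was 3483 to 3619.9 CPM with soluble OVA against 1664 to 2039.7 CPM with PBS. B cell genes had 1 of 8 called higher and 2 lower, and plasmacytoid dendritic cell genes 1 of 5 tested higher and 2 lower. Plasma cell genes had 1 of 5 tested higher and 1 lower. Monocyte and macrophage genes were called lower in 1 of 11 tested, and conventional dendritic cell genes in 1 of 6. The part of these cells in the lower levels was not tested. Left out in turn, each library gave between 4 and 10 called members, and the 4 came without PP soluble OVA replicate 2. The median of the 42 genes then ran from -0.68, without PP soluble OVA replicate 3, to -0.28, without PP PBS replicate 2.

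OVA NPs, compared with PBS in the PPs, changed none of the 42 genes in edgeR, and none of the 15798 genes tested passed (0%). Of the members 2 had an unadjusted p under 0.05, and the smallest adjusted p among them was 0.343. DESeq2 called 149 genes of the whole table, with 0 members among them. The median log2 fold change of the 42 genes was -0.09 against -0.01 over all genes, with 16 above 0 and 26 below (48.6% and 51.4% of all genes). Groups did not overlap in 3 members that were higher and 2 that were lower, where the shares over all genes were 6.79% and 10.5%. The summed level of germinal center B cell genes was 1324 to 2019 CPM with OVA NPs, overlapping that of PBS controls. Other sums did not overlap, although no marker gene was called. T cell genes summed to 28.2 to 38.2 CPM with OVA NPs and 13.7 to 20.2 CPM with PBS. NK cell genes had 26.6 to 39.8 against 18.9 to 19.8 CPM, and monocyte and macrophage genes 317 to 409.9 against 182 to 306 CPM. B cell genes were lower, at 7229.6 to 7684 against 7813 to 8686 CPM. Their part was not tested.

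OVA NPs compared directly with soluble OVA in the PPs, a comparison that uses the same soluble OVA libraries as the one against PBS, gave 10 members called higher and 1 lower. Over all genes 30.1% were called, 13.8% higher and 16.3% lower. Higher with OVA NPs were *Ddx58*, *Samd9l*, *Xaf1*, *Oasl1*, *Trim30a*, *Bst2*, *Irf9*, *Parp14*, *Ifi35*, and *Sp100*, by 1.04 to 0.27 on the log2 scale. *Sp140*, which encodes a chromatin reader of lymphocytes, was lower. The median of all 42 genes was 0.42 against 0.03 over all genes, with 36 above 0 and 6 below (52.4% and 47.6% of all genes). In 14 members every OVA NP library was above every soluble OVA library, and in 1 below, where the shares over all genes were 22.8% and 25.6%, or 48.4% in both directions. The markers of germinal center B cells fell, with 7 of 8 called lower, while 6 of 8 T cell genes, 6 of 11 monocyte and macrophage genes tested, and 4 of 6 conventional dendritic cell genes were called higher. Another conventional dendritic cell gene was called lower, as was 1 of 8 B cell genes. NK cell genes were called higher in 1 of 4 tested and epithelial genes in 1 of 5. Of 6 plasmacytoid dendritic cell genes tested, 2 were called higher and 1 lower, and mitochondrial genes held 9.08% to 9.80% of the counts with OVA NPs and 4.97% to 6.02% with soluble OVA. The summed level of the monocyte and macrophage genes was 317 to 409.9 CPM with OVA NPs and 175 to 392 CPM with soluble OVA. A large part of these sums was *Ace*, with a mean of 143 CPM with OVA NPs and 158 CPM with soluble OVA. *Ace* alone among the listed genes had a lower mean with OVA NPs. Of the macrophage markers in the sum, *C1qa* had a mean of 18.4 CPM with OVA NPs and 9.75 CPM with soluble OVA. The part of these cells, and of the mitochondrial share, in the differences was not tested.

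In spleen, OVA NPs against PBS called members only as higher, and soluble OVA against PBS called them in both directions. OVA NPs raised 6 of the 42 genes compared with PBS and lowered 0, while 8.60% of all genes were called higher and 6.35% lower. How far the members leaned upward depended on single libraries. Without spleen OVA NP replicate 3 the comparison called 7 members, 4 higher and 3 lower, with a median log2 fold change of -0.05. Of the 6 calls, 4 were kept in that fit. Without spleen PBS replicate 3 it called 4, all higher, with a median of 0.03. The 6 genes were *Isg15*, which encodes a ubiquitin-like protein, *Isg20*, an RNA exonuclease gene, *Ifih1*, *Lgals3bp*, a secreted glycoprotein gene, *Plscr1*, a phospholipid scramblase gene, and *Sp140*, by 0.60 to 0.29 on the log2 scale. *Plscr1* and *Sp140* are among the genes that the study itself picked on these samples, so they are not independent evidence of a direction. With all 6 libraries the median of the 42 genes was 0.19 against 0.00 over all genes, with 32 above 0 and 10 below (50.1% and 49.9% of all genes). The groups did not overlap in 10 members that were higher and 0 that were lower, where the shares were 18.7% and 18.6%. Soluble OVA compared with the same PBS libraries raised 3 members, *Plscr1*, *Sp140*, and *Lgals3bp*, and lowered 4, *Samd9l*, *Oasl1*, *Ddx58*, and *Parp14*, with 10.5% of all genes called higher and 6.72% lower. The median was then -0.12 against -0.01, with 16 above 0 and 26 below (48.6% and 51.4% of all genes). In it 4 members were higher and 3 lower without overlap, where the shares were 19.0% and 18.8%. Without spleen PBS replicate 3, the soluble OVA comparison called 14 members, 2 higher and 12 lower, and without spleen PBS replicate 2 it called 4. The germinal center B cell genes were called higher in 7 of 8 with OVA NPs (736 to 915 CPM in sum) and in 8 of 8 with soluble OVA (809.5 to 947 CPM) against 234 to 343 CPM with PBS. Monocyte and macrophage genes were called lower in 5 of 9 tested with OVA NPs (49.1 to 170.3 CPM) and in 7 of 9 with soluble OVA (38.7 to 86.6 CPM), against 121 to 277 CPM with PBS. Plasma cell genes were called higher in 2 of 5 tested with each OVA treatment, and lower in 0 with OVA NPs and 1 with soluble OVA. They summed to 600.1 to 617 CPM with OVA NPs and 482 to 551 CPM with soluble OVA, against 375 to 432 CPM with PBS. Conventional dendritic cell genes were called lower in 2 of 6 with each, and higher in 0 with OVA NPs and 1 with soluble OVA. Whether these cells had a part in the member differences was not tested.

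Between OVA NPs and soluble OVA in spleen, edgeR called 0 of the 42 genes, where 33 of 13840 genes (0.238%) were called. The members had higher levels with OVA NPs in 36 of 42 and lower in 6 (49.0% and 51.0% of all genes), with a median log2 fold change of 0.23 against -0.00 over all genes. An unadjusted p under 0.05 was found for 19 members and for 1199 of the 13840 genes. The smallest adjusted p was 0.127, for *Zbp1*, a sensor of Z-form nucleic acid, at 0.41 ± 0.09 (SE). In 11 members every OVA NP library was above every soluble OVA library and in 0 below, where the shares over all genes were 6.58% and 7.50%. DESeq2 called 1 member, and edgeR without a filter on low counts called 9, all higher with OVA NPs.

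**Figure D2:**
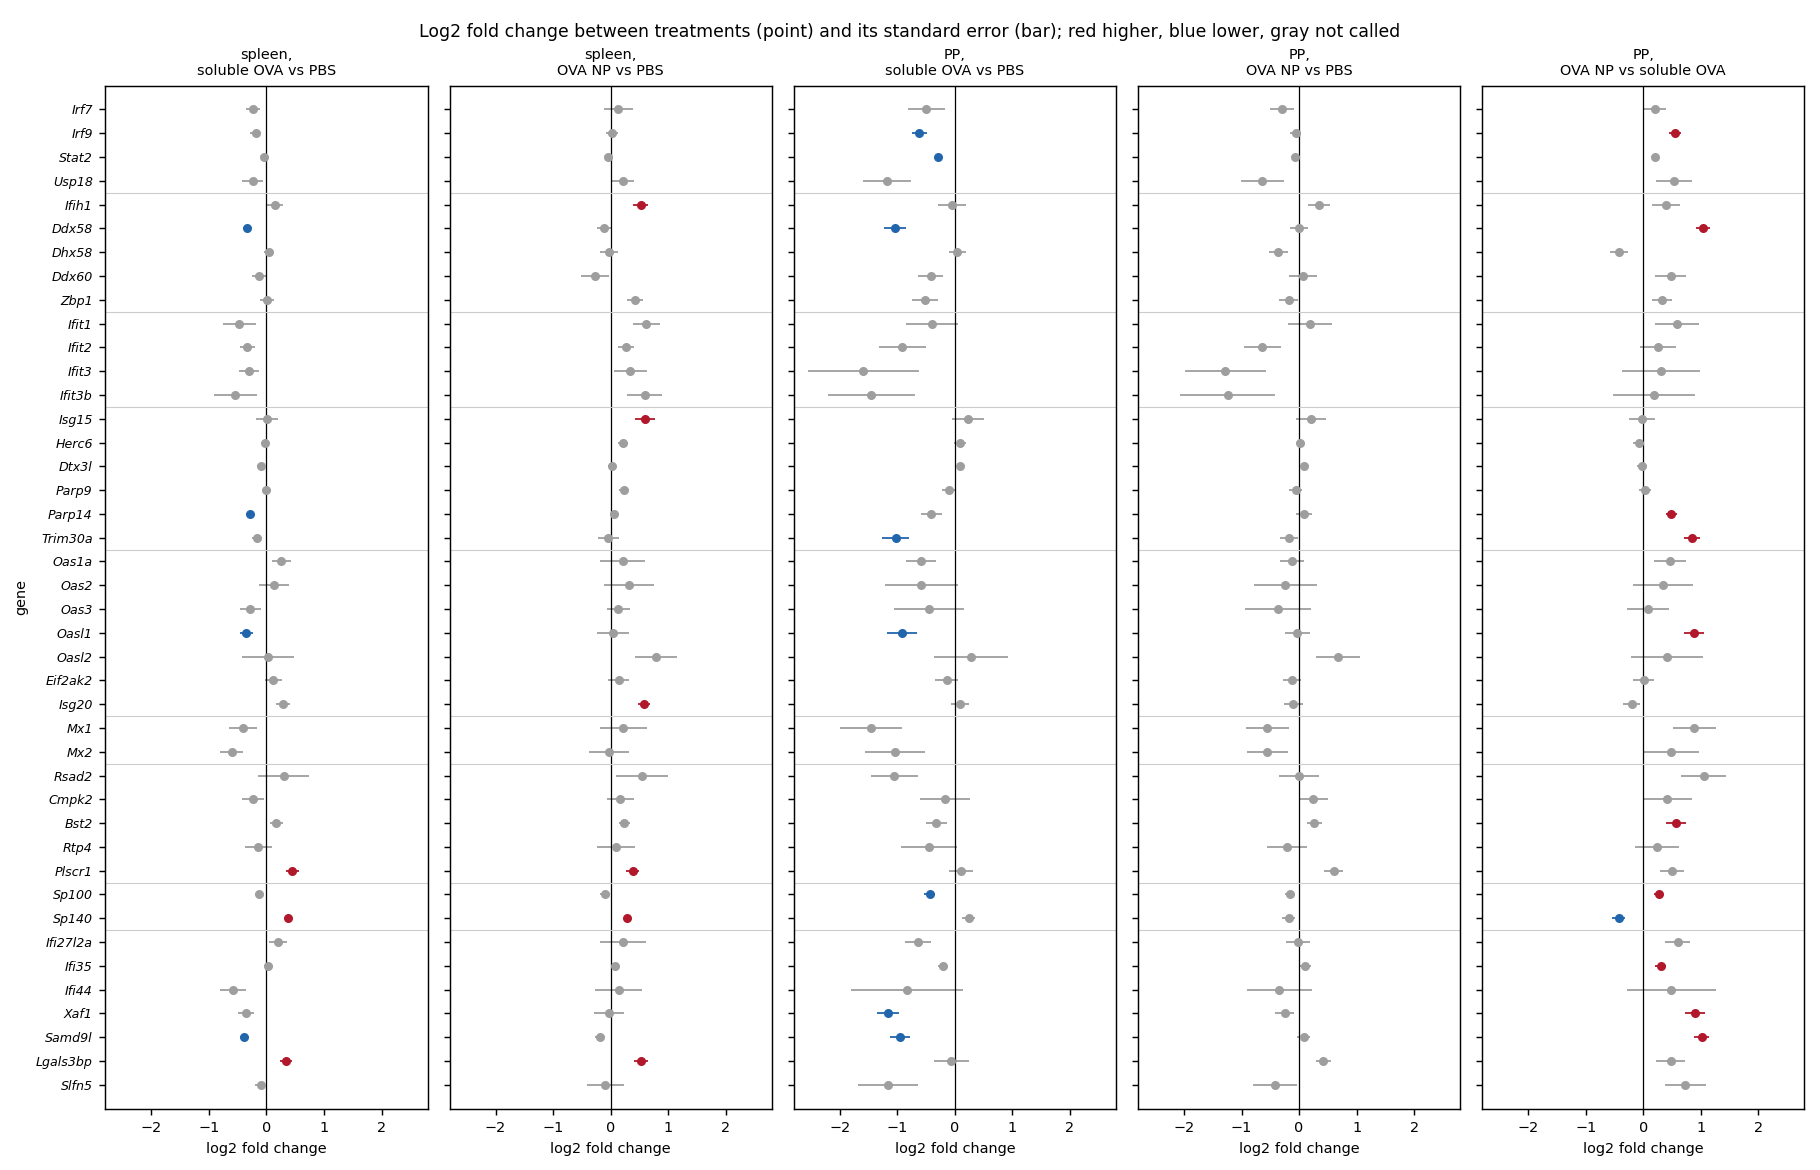
Log2 fold change of each gene (rows, in the order of the roles) with its standard error, in 2 spleen comparisons and 3 PP comparisons, with called genes in red (higher) or blue (lower). Blue points stand alone in the comparison of soluble OVA with PBS in PPs, where 8 genes were lower, and no point is colored for OVA NPs against PBS in PPs.

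Among the signaling and feedback genes, *Irf9* and *Stat2* encode the DNA-binding and activating subunits of the transcription factor. *Irf9* stood in spleen at 131, 139, and 111 CPM in PBS controls, 124, 102, and 109 CPM with soluble OVA, and 114, 130.1, and 141 CPM with OVA NPs. In PPs, *Irf9* stood at 70.0, 83.2, and 63.9 CPM with PBS, 43.3, 43.4, and 55.1 CPM with soluble OVA, and 71.0, 68.1, and 66.3 CPM with OVA NPs. The soluble OVA libraries of PPs were below all others of that tissue, with a log2 fold change of -0.62 ± 0.13 (SE) against PBS (adjusted p = 0.00695), and OVA NPs were higher than soluble OVA by 0.55 ± 0.10 (adjusted p = 0.00429). *Stat2* spread little between replicates, at 140.1, 137, and 131 CPM in the spleen of PBS controls, 127, 129.8, and 138 CPM with soluble OVA, and 120.0, 131, and 140.2 CPM with OVA NPs. In PPs, *Stat2* stood at 106, 106, and 102 CPM with PBS, 86.6, 85.9, and 87.5 CPM with soluble OVA, and 101, 101, and 95.0 CPM with OVA NPs. It fell by 0.29 ± 0.06 on the log2 scale with soluble OVA in PPs (adjusted p = 0.00808), and the difference between OVA NPs and soluble OVA, 0.21 ± 0.07, did not pass (adjusted p = 0.0539). The fall was no longer called in 3 of 6 fits with a library left out, nor without the filter on low counts. *Irf7*, the amplifying transcription factor, and *Usp18*, the protease that removes ISG15 and inhibits the receptor, were called in no comparison of treatments. *Irf7* ranged from 37.4 to 85.4 CPM and *Usp18* from 1.61 to 7.36 CPM over the 18 libraries.

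The nucleic acid sensors did not move as a class. *Ddx58* had 163, 158, and 136 CPM in the spleen of PBS controls, 121, 118, and 125 CPM with soluble OVA, and 121, 136, and 164 CPM with OVA NPs. In PPs, *Ddx58* had 70.0, 105, and 71.1 CPM with PBS, 36.1, 35.8, and 47.8 CPM with soluble OVA, and 83.6, 76.1, and 83.8 CPM with OVA NPs. With soluble OVA it was lower than PBS in both tissues without overlap, by -0.33 ± 0.07 in spleen (adjusted p = 0.00476) and by -1.04 ± 0.19, a 2.06-fold fall, in PPs (adjusted p = 0.00944), and OVA NPs stood 2.05-fold above soluble OVA in PPs (1.04 ± 0.12, adjusted p = 5.06e-04). *Ifih1* was measured at 8.49, 8.59, and 8.64 CPM in the spleen of PBS controls, 7.97, 10.4, and 10.4 CPM with soluble OVA, and 13.9, 11.9, and 11.0 CPM with OVA NPs. In PPs, *Ifih1* was measured at 9.66, 8.57, and 7.53 CPM with PBS, 5.56, 8.85, and 10.7 CPM with soluble OVA, and 13, 9.78, and 9.61 CPM with OVA NPs. Only the spleen comparison of OVA NPs with PBS passed for *Ifih1*, at 0.52 ± 0.13 (adjusted p = 0.00922). The other sensors, *Dhx58* (LGP2), *Ddx60*, and *Zbp1*, were called in no comparison of treatments. *Zbp1* ranged from 24.6 to 46.7 CPM in spleen and from 13.3 to 30.0 CPM in PPs.

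The IFIT genes, whose proteins bind viral RNA and block its translation, were called in no comparison of treatments. *Ifit3* showed how widely libraries of 1 group could spread. It stood at 5.33, 12.0, and 1.74 CPM in the PPs of PBS controls, and at 0.665, 1.41, and 4.26 CPM with soluble OVA, so the groups overlapped in spite of a log2 fold change of -1.59 ± 0.96. *Ifit3b* was at 3 to 91 counts in every library, and *Ifit1* at 1.01 to 4.67 CPM.

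Of the ISG15 system and the ubiquitin and ADP-ribose enzymes, *Isg15* and *Parp14* moved in spleen and *Parp14* and *Trim30a* in PPs. *Isg15* stood at 6.72, 6.72, and 4.93 CPM in the spleen of PBS controls, 7.70, 5.41, and 5.21 CPM with soluble OVA, and 8.02, 8.49, and 11.0 CPM with OVA NPs. In PPs, *Isg15* stood at 3.91, 6.22, and 3.53 CPM with PBS, 4.65, 4.70, and 6.68 CPM with soluble OVA, and 4.92, 5.01, and 5.69 CPM with OVA NPs. All OVA NP libraries of spleen were above the PBS libraries, by 0.60 ± 0.17 (adjusted p = 0.0223), and the call was lost without spleen PBS replicate 3, spleen OVA NP replicate 2, or spleen OVA NP replicate 3. *Parp14*, which encodes an ADP-ribosyltransferase known as a cofactor of STAT6, was at 148, 151, and 144 CPM in the spleen of PBS controls, 110.1, 128, and 125 CPM with soluble OVA, and 133, 152, and 173 CPM with OVA NPs. In PPs, *Parp14* was at 92.3, 119, and 76.2 CPM with PBS, 64.3, 68.7, and 85.0 CPM with soluble OVA, and 102, 101, and 100.4 CPM with OVA NPs. It was lower with soluble OVA than with PBS in spleen (-0.28 ± 0.07, adjusted p = 0.0101) and lower than with OVA NPs in PPs, the latter being higher by 0.49 ± 0.10 (adjusted p = 0.00606). *Trim30a* had 96.0, 99.4, and 74.9 CPM in the spleen of PBS controls, 82.9, 78.9, and 77.5 CPM with soluble OVA, and 72.5, 83.0, and 105 CPM with OVA NPs. In PPs, *Trim30a* had 45.5, 66.7, and 42.5 CPM with PBS, 21.8, 22.3, and 32.1 CPM with soluble OVA, and 45.5, 46.6, and 43.5 CPM with OVA NPs. Its PP levels with soluble OVA were 2.04-fold lower than with PBS (-1.03 ± 0.23, adjusted p = 0.0195) and OVA NPs were 1.80-fold above soluble OVA (0.85 ± 0.14, adjusted p = 0.00287). *Herc6*, the mouse ligase for ISG15, and *Dtx3l* and *Parp9*, which form a ligase complex, were not called between treatments. Their log2 fold changes against PBS lay between -0.10 and 0.23 in all 4 comparisons.

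In the OAS family and the RNA-acting enzymes, *Oasl1*, a regulator of IRF7 translation, was called against PBS with soluble OVA and *Isg20* with OVA NPs. *Oasl1* was measured at 25.6, 27.0, and 19.6 CPM in the spleen of PBS controls, 19.9, 19.0, and 17.8 CPM with soluble OVA, and 17.6, 22.7, and 33.2 CPM with OVA NPs. In PPs, *Oasl1* was measured at 16.3, 26.9, and 15 CPM with PBS, 8.50, 9.36, and 12.9 CPM with soluble OVA, and 16.3, 21.2, and 18.7 CPM with OVA NPs. It was lower with soluble OVA than with PBS by -0.35 ± 0.11 in spleen (adjusted p = 0.0463), where the groups overlapped and the call was lost in 5 of 6 fits with a library left out, and by -0.92 ± 0.26 in PPs (adjusted p = 0.0326). The PP call was lost in 4 of 6 fits with a library left out and with the replicate number as a block. OVA NPs were 1.85-fold above soluble OVA in PPs (0.88 ± 0.17, adjusted p = 0.00528). *Isg20* was at 15.7, 16.2, and 13.7 CPM in the spleen of PBS controls, 21.6, 16.4, and 17.4 CPM with soluble OVA, and 23.3, 23.8, and 20.9 CPM with OVA NPs. In PPs, *Isg20* was at 10.7, 14.2, and 12.1 CPM with PBS, 14.1, 11.7, and 13.8 CPM with soluble OVA, and 12.1, 11.8, and 10.1 CPM with OVA NPs. The spleen levels with OVA NPs were 1.49-fold above PBS without overlap (0.58 ± 0.10, adjusted p = 8.68e-04), and the call held without each library. The soluble OVA libraries of spleen also lay wholly above those of PBS for *Isg20*, a difference that was not called. *Oasl2* was scarce, at 0.867, 0.529, and 0.678 CPM in the spleen of PBS controls, 0.462, 1.12, and 0.591 CPM with soluble OVA, and 1.26, 1.40, and 0.950 CPM with OVA NPs. In PPs, *Oasl2* reached 2.79, 1.32, and 2.15 CPM with PBS, 0.595, 3.53, and 3.63 CPM with soluble OVA, and 4.69, 2.50, and 2.87 CPM with OVA NPs. The epithelial genes summed to 350.5, 156, and 495 CPM in these PP libraries with PBS. With soluble OVA they summed to 177, 699, and 652 CPM, and with OVA NPs to 681, 341, and 436 CPM. In each group the lowest sum and the lowest *Oasl2* level fell in the same library, and their relation was not tested. No comparison of treatments passed for *Oasl2*, nor for *Oas1a*, *Oas2*, and *Oas3*, which make the activator of RNase L, or *Eif2ak2*, the kinase PKR.

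*Mx1* and *Mx2*, the dynamin-like GTPases, were called in no comparison of treatments. *Mx1* in PPs stood at 9.03, 13.5, and 4.25 CPM with PBS, 2.34, 2.00, and 5.47 CPM with soluble OVA, and 5.65, 6.86, and 5.42 CPM with OVA NPs. The soluble OVA and PBS groups overlapped in 1 library of each, and the difference of -1.45 ± 0.54 had an adjusted p of 0.0945.

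Among the membrane and nucleotide effectors, *Plscr1* and *Bst2* were called. *Plscr1* stood at 15.9, 14.0, and 13.3 CPM in the spleen of PBS controls, 21.9, 18.1, and 18.9 CPM with soluble OVA, and 20.9, 16.9, and 18.1 CPM with OVA NPs. In PPs, *Plscr1* stood at 8.91, 8.06, and 8.45 CPM with PBS, 6.65, 11.1, and 9.73 CPM with soluble OVA, and 9.98, 14.3, and 14.1 CPM with OVA NPs. In spleen both OVA treatments were above PBS without overlap, by 0.45 ± 0.11 for soluble OVA (adjusted p = 0.00863) and 0.38 ± 0.11 for OVA NPs (adjusted p = 0.0264), and the OVA NP call was lost in 3 of 6 fits with a library left out. *Bst2*, which encodes tetherin, a surface protein that holds virions on the cell, was at 20.4, 17.2, and 19.0 CPM in the spleen of PBS controls, 24.5, 19.6, and 19.1 CPM with soluble OVA, and 20.7, 24.1, and 21.9 CPM with OVA NPs. In PPs, *Bst2* was at 17.4, 14.3, and 15.7 CPM with PBS, 10.7, 11.7, and 16.1 CPM with soluble OVA, and 20.6, 17.7, and 17.9 CPM with OVA NPs. OVA NPs were 1.48-fold above soluble OVA in PPs (0.57 ± 0.17, adjusted p = 0.0292), a call lost in 5 of 6 fits with a library left out. *Rsad2* (viperin) and *Cmpk2*, a mitochondrial nucleotide kinase gene, lie next to each other on chromosome 12, and with *Rtp4*, a receptor transporter gene, they were called in no comparison of treatments. *Rsad2* was at 0.520, 0.692, and 0.362 CPM in the spleen of PBS controls, 0.578, 0.808, and 0.591 CPM with soluble OVA, and 0.458, 0.670, and 1.11 CPM with OVA NPs. In PPs, *Rsad2* was at 1.87, 1.54, and 1.23 CPM with PBS, 0.525, 1.02, and 0.710 CPM with soluble OVA, and 1.24, 1.44, and 1.96 CPM with OVA NPs. The soluble OVA libraries of PPs were below those of both other groups for *Rsad2*, although neither difference passed (-1.05 ± 0.41, adjusted p = 0.0883 against PBS). *Cmpk2* stood at 24.2, 24.7, and 14.4 CPM in the spleen of PBS controls, 19.2, 17.3, and 17.1 CPM with soluble OVA, and 20.6, 23.2, and 27.0 CPM with OVA NPs. In PPs, *Cmpk2* stood at 6.20, 9.81, and 7.74 CPM with PBS, 3.01, 8.23, and 9.98 CPM with soluble OVA, and 11.9, 7.14, and 8.79 CPM with OVA NPs. Every spleen library was above every PP library for *Cmpk2*, which was not so for its neighbor. *Rtp4* had 9.32, 10.7, and 5.11 CPM in the spleen of PBS controls, 8.66, 7.65, and 6.55 CPM with soluble OVA, and 7.05, 7.31, and 12.2 CPM with OVA NPs. In PPs, *Rtp4* had 4.83, 5.57, and 2.05 CPM with PBS, 1.57, 2.7, and 4.84 CPM with soluble OVA, and 3.49, 3.75, and 3.37 CPM with OVA NPs.

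The nuclear body proteins SP100 and SP140 are close relatives, and between OVA NPs and soluble OVA in PPs their genes moved in opposite directions. *Sp100*, which encodes a scaffold of PML bodies, stood at 492, 496, and 429 CPM in the spleen of PBS controls, 459.8, 422, and 411 CPM with soluble OVA, and 379.9, 446, and 494 CPM with OVA NPs. In PPs, *Sp100* stood at 333, 390.5, and 309.6 CPM with PBS, 263, 239.9, and 262 CPM with soluble OVA, and 297, 313, and 307 CPM with OVA NPs. It was lower with soluble OVA than with PBS in PPs by -0.44 ± 0.09 (adjusted p = 0.00624), and OVA NPs were above soluble OVA by 0.27 ± 0.08 (adjusted p = 0.0248), a call lost in 5 of 6 fits with a library left out. *Sp140* was at 138, 137, and 145 CPM in the spleen of PBS controls, 186, 179, and 183 CPM with soluble OVA, and 160.2, 169.7, and 183 CPM with OVA NPs. In PPs, *Sp140* was at 200.0, 229, and 176 CPM with PBS, 271, 222, and 228 CPM with soluble OVA, and 150.3, 192, and 188 CPM with OVA NPs. Both OVA treatments were above PBS in spleen without overlap, soluble OVA by 0.38 ± 0.06 (adjusted p = 3.40e-04) and OVA NPs by 0.29 ± 0.06 (adjusted p = 0.00202). In PPs OVA NPs were 1.35-fold below soluble OVA (-0.43 ± 0.12, adjusted p = 0.0233), and neither differed from PBS by a called amount.

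Of the genes in no other class, *Samd9l*, *Xaf1*, *Lgals3bp*, and *Ifi35* were called. *Samd9l* stood at 867, 815, and 725 CPM in the spleen of PBS controls, 609.7, 615, and 609.8 CPM with soluble OVA, and 637, 682, and 797 CPM with OVA NPs. In PPs, *Samd9l* stood at 335, 428, and 313 CPM with PBS, 182, 154, and 223 CPM with soluble OVA, and 354, 371, and 402 CPM with OVA NPs. With soluble OVA it was below PBS without overlap in both tissues, by -0.39 ± 0.07 in spleen (adjusted p = 0.00202) and by -0.95 ± 0.17, a 1.94-fold fall, in PPs (adjusted p = 0.00607), and in PPs OVA NPs were 2.03-fold above soluble OVA (1.02 ± 0.13, adjusted p = 8.49e-04). *Xaf1* was at 23.8, 21.0, and 15.1 CPM in the spleen of PBS controls, 16.2, 15.3, and 15.6 CPM with soluble OVA, and 14.1, 19.4, and 24.7 CPM with OVA NPs. In PPs, *Xaf1* was at 10.7, 13.7, and 10.6 CPM with PBS, 4.83, 4.70, and 6.26 CPM with soluble OVA, and 9.47, 9.32, and 10.4 CPM with OVA NPs. Its PP levels with soluble OVA were 2.23-fold below PBS (-1.16 ± 0.19, adjusted p = 0.00239), and OVA NPs were 1.87-fold above soluble OVA (0.90 ± 0.18, adjusted p = 0.00605). *Lgals3bp* had 20.2, 19.6, and 15.1 CPM in the spleen of PBS controls, 21.9, 22.5, and 25.2 CPM with soluble OVA, and 28.2, 27.5, and 22.8 CPM with OVA NPs. In PPs, *Lgals3bp* had 27.1, 21.4, and 30.0 CPM with PBS, 15.7, 34.0, and 26.6 CPM with soluble OVA, and 35.5, 34.1, and 34.9 CPM with OVA NPs. Within each PP group *Lgals3bp* ran in the same order of libraries as the epithelial sum, a relation that was not tested. In spleen it was above PBS by 0.34 ± 0.11 with soluble OVA (adjusted p = 0.0477), a call lost in 4 of 6 fits with a library left out, and by 0.52 ± 0.12 with OVA NPs (adjusted p = 0.00952). *Ifi35* was measured at 50.9, 50.2, and 47.6 CPM in the spleen of PBS controls, 56.8, 45.8, and 48.9 CPM with soluble OVA, and 47.5, 53.1, and 55.8 CPM with OVA NPs. In PPs, *Ifi35* was measured at 42.3, 45.3, and 41.9 CPM with PBS, 36.3, 38.0, and 38.4 CPM with soluble OVA, and 50.8, 42.2, and 43.9 CPM with OVA NPs. OVA NPs were above soluble OVA in PPs by 0.30 ± 0.10 (adjusted p = 0.0446), and the call was lost without any 1 of the 6 libraries. *Ifi27l2a*, *Ifi44*, and *Slfn5* were called in no comparison of treatments, and *Ifi44* in PPs ranged from 0.945 to 9.30 CPM.

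**Figure D3:**
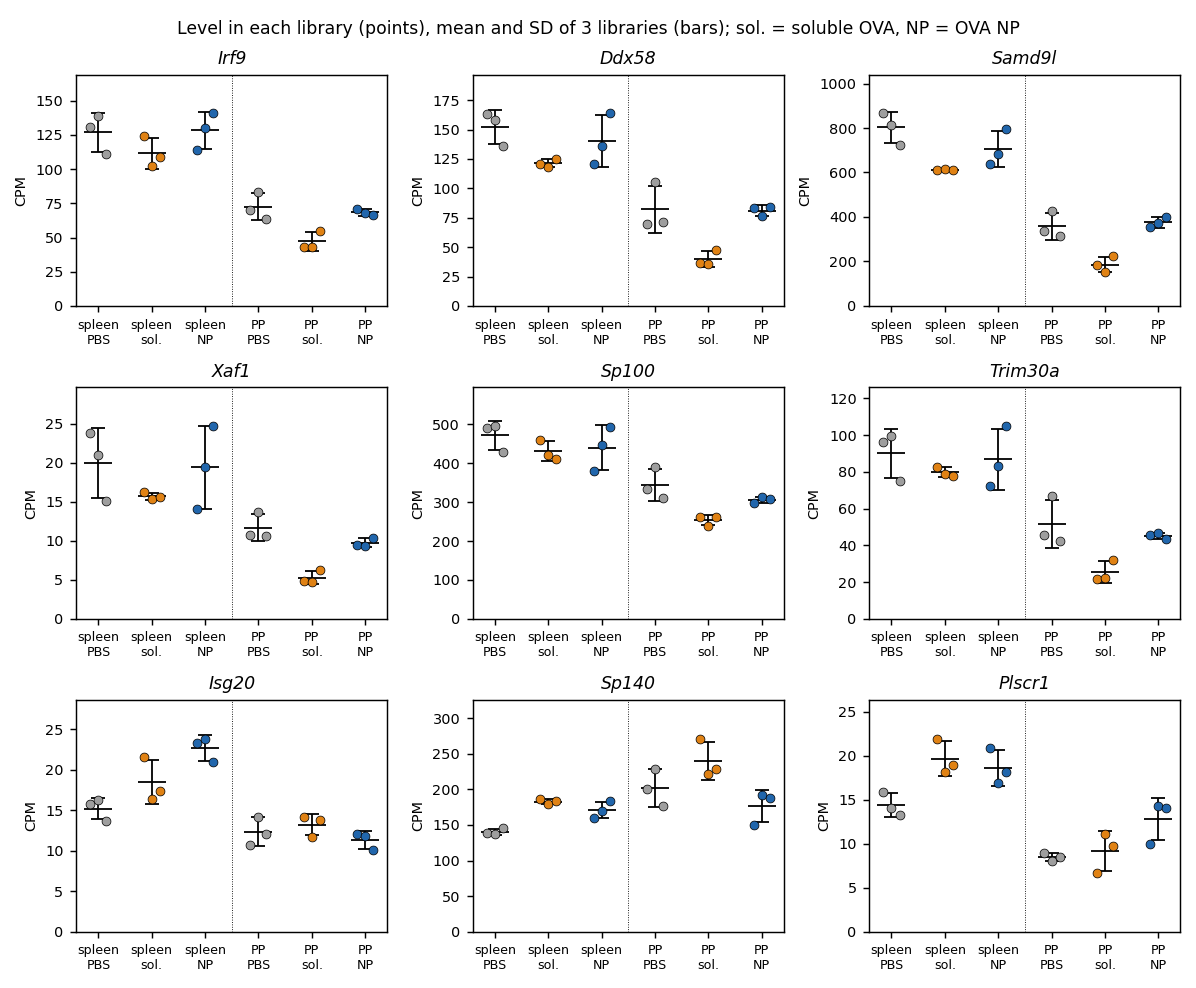
CPM in each library (points), with the mean and SD of 3 libraries (bars), for 9 members in spleen (left of the dotted line) and PPs. *Irf9*, *Ddx58*, *Samd9l*, *Xaf1*, *Sp100*, and *Trim30a* are lowest in the PPs of soluble OVA–treated mice, while *Isg20*, *Sp140*, and *Plscr1* are higher in spleen with OVA NPs than with PBS.

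Single libraries carried these genes up or down together. In the spleen of OVA NP–treated mice, replicate 3 held the highest level of its group in 35 of the 42 genes, where 37.4% of all genes were highest in that library. In the same way, replicate 2 was highest in 31 of 42 in the PPs of PBS controls (38.0% of all genes) and replicate 3 in 35 of 42 in the PPs of soluble OVA–treated mice (31.0%). Replicate 3 of the spleen PBS controls held the lowest level in 37 of 42 genes (32.7% of all genes), replicate 3 of the PP PBS controls in 34 of 42 (36.6%), and replicate 1 of the spleen OVA NP group in 30 of 42 (37.7%). The members varied more between replicates than other genes of at least 5 CPM in all 6 groups by their median coefficient of variation, which was 15% against 5.03% in the spleen of PBS controls, 16.4% against 6.23% with OVA NPs in spleen, 17% against 8.75% with PBS in PPs, 21.7% against 7.31% with soluble OVA in PPs, and 9.42% against 8.40% with OVA NPs in PPs. With soluble OVA in spleen it was closest, at 7.99% against 7.34%. The summed level of the monocyte and macrophage markers had no single relation to the members among the replicates. It was 277 CPM in spleen PBS replicate 3, against 194 and 121 CPM in the other 2, and 49.1 CPM in spleen OVA NP replicate 3, against 170.3 and 139 CPM. In the PPs of PBS controls it was 182 CPM in replicate 2, against 239 and 306 CPM in replicates 1 and 3. With OVA NPs in PPs the sums were 384, 317, and 409.9 CPM. In these 4 groups the library with the lowest sum was also the one highest in the most members, and in both soluble OVA groups it was not. In the spleen of soluble OVA–treated mice, replicate 3 had the lowest sum, 38.7 CPM against 62.8 and 86.6 CPM, and was lowest in 17 members and highest in 10. In the PPs of soluble OVA–treated mice, replicate 3, highest in 35 members, had 276 CPM, between the 175 CPM of replicate 1, which was lowest in 26 members, and the 392 CPM of replicate 2. Of these markers, *Ace* alone had means of 77.8, 158, and 143 CPM in PPs with PBS, soluble OVA, and OVA NPs. It thus weighed heavily in the PP sums. The epithelial sum was lowest in PP PBS replicate 2, at 156 CPM against 350.5 and 495 CPM. In PP soluble OVA replicate 3 it was 652 CPM, between the 177 and 699 CPM of the other libraries. With OVA NPs in PPs it was 681, 341, and 436 CPM. Whether any of these cells had a part in the spread was not tested.

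**Figure D4:**
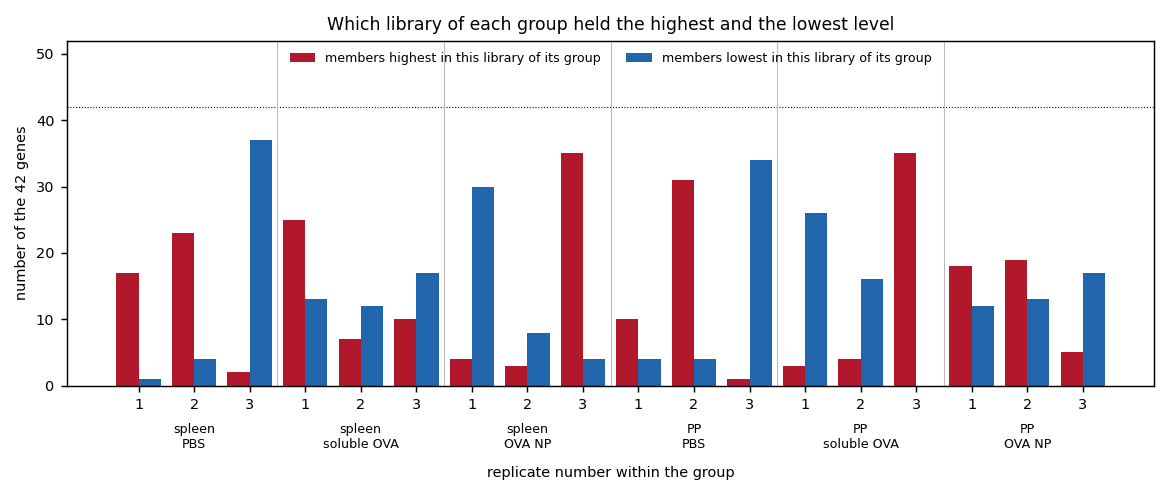
For each of the 18 libraries, the number of the 42 genes whose level was the highest (red) or lowest (blue) of the 3 libraries of its group, with the dotted line at 42. Spleen OVA NP replicate 3 and PP soluble OVA replicate 3 were each highest in 35 genes, and spleen PBS replicate 3 was lowest in 37.

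The second question was how the levels compared between tissues. The 3 comparisons of PPs with spleen, each within 1 treatment, share no libraries. In PBS controls 13 of the 42 genes were called lower in PPs and 4 higher, while 45.6% of all genes were called, 20.1% lower and 25.5% higher. In soluble OVA–treated mice 26 were lower and 2 higher (24.3% and 26.7% of all genes), and in OVA NP–treated mice 26 were lower and 2 higher (15.1% and 22.0%). The medians of the 42 log2 fold changes were -0.39, -0.82, and -0.72, against 0.01, 0.00, and 0.00 over all genes. PP and spleen libraries did not overlap in 14 members that were lower and 5 that were higher in PBS controls, where the shares over all genes were 29.6% and 30.6%. With soluble OVA the counts were 29 and 2 (30.5% and 32.1%), and with OVA NPs 26 and 3 (30.0% and 24.6%). Without PP PBS replicate 2, the shallowest library, the comparison in PBS controls called 27 members in place of 17, 22 lower and 5 higher.

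Called lower in PPs under all 3 treatments were 11 genes, *Irf9*, *Stat2*, *Ddx58*, *Dtx3l*, *Parp14*, *Trim30a*, *Cmpk2*, *Plscr1*, *Sp100*, *Xaf1*, and *Samd9l*. *Samd9l* was 2.21-fold lower in PPs in PBS controls (-1.15 ± 0.11, adjusted p = 4.85e-05), 3.28-fold lower with soluble OVA (-1.71 ± 0.12, adjusted p = 5.66e-06), and 1.82-fold lower with OVA NPs (-0.86 ± 0.08, adjusted p = 5.21e-05). For *Cmpk2* the falls were close to one another, at 2.66-fold (-1.41 ± 0.24, adjusted p = 0.00147), 2.54-fold (-1.34 ± 0.42, adjusted p = 0.0356), and 2.46-fold (-1.30 ± 0.19, adjusted p = 8.04e-04) in the same order. *Irf9* and *Stat2* were lower by -0.80 ± 0.10 and -0.36 ± 0.05 in PBS controls, by -1.24 ± 0.11 and -0.60 ± 0.06 with soluble OVA, and by -0.86 ± 0.08 and -0.35 ± 0.07 with OVA NPs. *Ddx58* was lower by -0.89 ± 0.15, -1.61 ± 0.11, and -0.74 ± 0.10. *Rtp4*, with a log2 fold change of -1.01 ± 0.39 in PBS controls that did not pass (adjusted p = 0.0592), passed with soluble OVA (-1.33 ± 0.37, adjusted p = 0.0139) and with OVA NPs (-1.27 ± 0.24, adjusted p = 0.00259).

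The IFIT genes were not called between tissues in PBS controls, where their log2 fold changes ran from -0.57 to -0.19. With OVA NPs 3 of the 4 were called lower in PPs, *Ifit2* by -1.43 ± 0.17 (adjusted p = 2.12e-04) and *Ifit3* by -1.92 ± 0.40 (adjusted p = 0.00581) among them, and with soluble OVA 1 was, *Ifit2* by -1.14 ± 0.29 (adjusted p = 0.00802). *Ifit2* stood at 11.4, 12.0, and 9.45 CPM in the spleen and 6.08, 11.4, and 4.82 CPM in the PPs of PBS controls, which overlapped, and at 11.8, 11.8, and 15.7 CPM in the spleen and 4.96, 4.17, and 4.96 CPM in the PPs of OVA NP–treated mice, which did not. *Mx1* and *Mx2* were both called lower in PPs with OVA NPs (-0.80 ± 0.28 and -0.96 ± 0.32), and *Slfn5*, a gene of the Schlafen family, was 3.99-fold lower with soluble OVA (adjusted p = 0.00472) and 2.33-fold lower with OVA NPs (adjusted p = 0.0284).

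Members called higher in PPs under at least 1 treatment numbered 5, and 0 were so under all 3. *Oasl2* was 3.09-fold higher in PBS controls (1.63 ± 0.41, adjusted p = 0.00766) and 2.91-fold higher with OVA NPs (1.54 ± 0.35, adjusted p = 0.00642), and with soluble OVA the value of 1.86 ± 0.69 did not pass (adjusted p = 0.0501). *Rsad2* was 2.96-fold higher in PBS controls (1.57 ± 0.41, adjusted p = 0.00935), with 8 to 17 counts in the spleen libraries and 21 to 45 in those of PPs, and was not called under the other treatments (0.20 ± 0.45 and 1.06 ± 0.41). *Sp140* was higher in PBS controls (0.54 ± 0.08, adjusted p = 3.27e-04) and with soluble OVA (0.40 ± 0.08, adjusted p = 0.00311), *Lgals3bp* in PBS controls (0.54 ± 0.16, adjusted p = 0.0171) and with OVA NPs (0.46 ± 0.10, adjusted p = 0.00477), and *Herc6* with soluble OVA (0.34 ± 0.12, adjusted p = 0.0293). *Irf7*, *Ifih1*, *Dhx58*, *Ifit1*, and *Oas2* were called in none of the 3 comparisons. In all 3, the germinal center B cell genes were called higher in PPs in 8 of 8. Other marker lists differed too. B cell genes were called lower in PPs in 5, 6, and 5 of 8 with PBS, soluble OVA, and OVA NPs. Monocyte and macrophage genes were called higher in 4 under each treatment and lower in 6 of 12, 1 of 11, and 0 of 11, and *C1qa* had means of 13.4, 9.75, and 18.4 CPM in PPs against 0, 0, and 0.0940 CPM in spleen. Genes of plasmacytoid dendritic cells were called higher in 2 of 5, 3 of 5, and 5 of 6 tested, those of conventional dendritic cells in 3, 3, and 4 of 6, those of NK cells in 3 of 4 each time, those of plasma cells in 4, 3, and 3 of 5, and those of T cells in 3 of 5, 2 of 6, and 7 of 8. Called lower with PBS were 1 T cell gene and 1 conventional dendritic cell gene. With soluble OVA 1 T cell gene and 1 plasmacytoid dendritic cell gene were lower. Neutrophil genes were called lower in 3 of 4, 3 of 4, and 0 of 3, and higher in 0, 1, and 1. Erythroid genes were lower in 3 of 3 each time. The epithelial genes summed to 156 to 699 CPM in PPs and 7.11 to 9.54 CPM in spleen, and the share of mitochondrial counts also differed between the tissues. The tissues further differed in how they were dissociated, PPs being digested with collagenase and spleens not. These differences cannot be told apart from that of the B cells themselves.

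**Figure D5:**
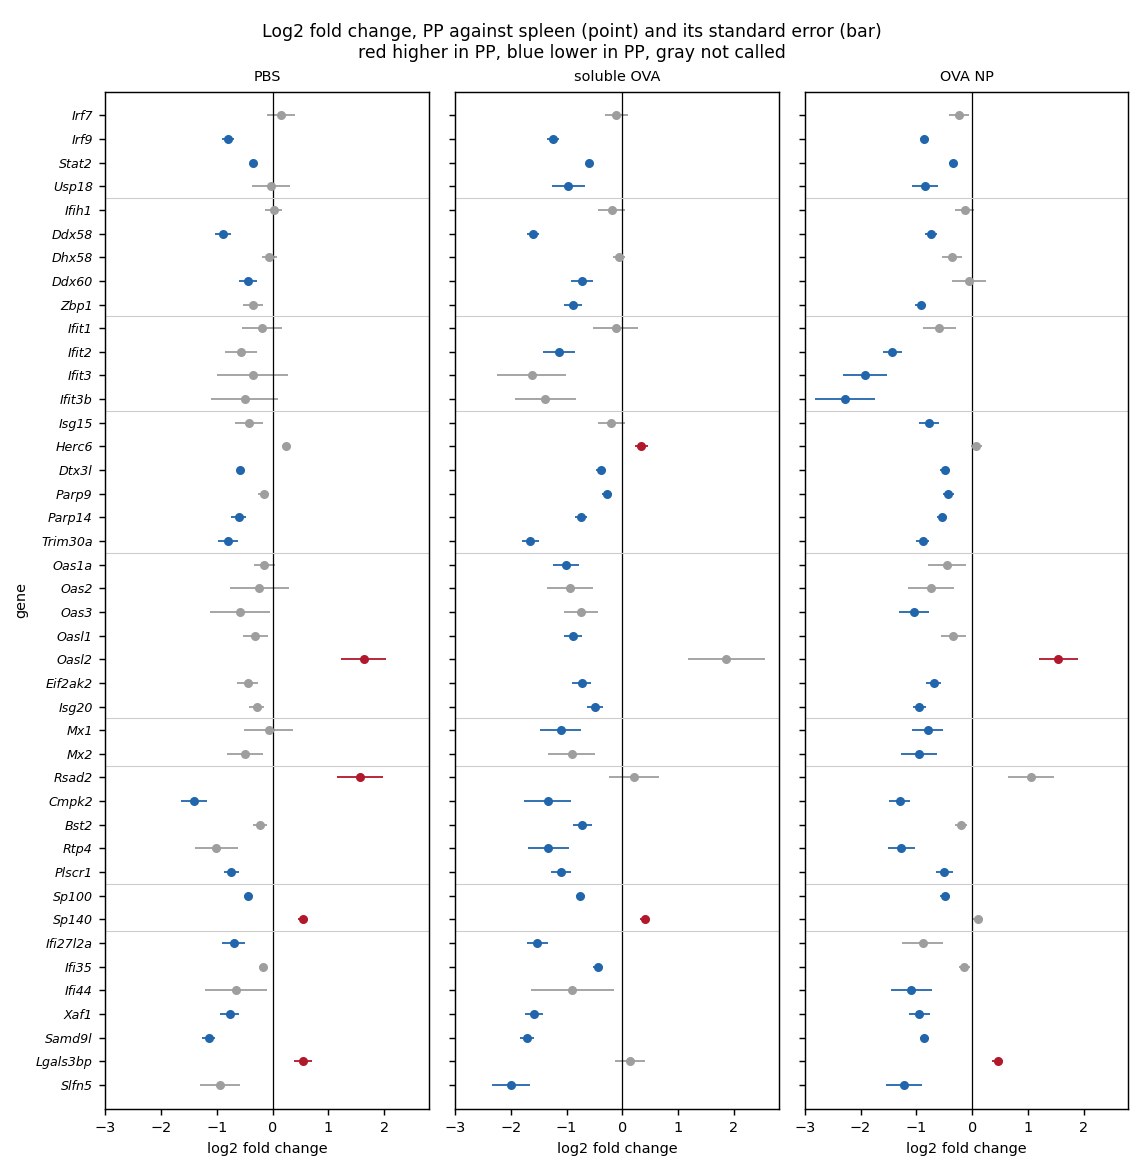
Log2 fold change of each gene between PPs and spleen with its standard error, for mice given PBS, soluble OVA, or OVA NPs, with genes called higher in PPs in red and lower in blue. Blue points number 13, 26, and 26, and *Oasl2* lies to the right of 0 in each panel.

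Whether a treatment acted differently in PPs and in spleen was tested with an interaction term in a fit of 12 libraries. For OVA NPs against PBS, 1 of the 42 genes passed, *Isg20*, at -0.67 ± 0.18 (adjusted p = 0.0496), where 3.54% of all genes passed in that direction and 4.42% in both. Its effect was 0.58 ± 0.10 in spleen and -0.10 ± 0.16 in PPs, and with 1 library left out the call held only without spleen OVA NP replicate 3, PP PBS replicate 1, or PP OVA NP replicate 1, and was lost in the other 9 fits. *Sp140* came next, at -0.46 ± 0.13 (adjusted p = 0.0659). For soluble OVA against PBS, edgeR passed 0 members (6.84% of all genes), while DESeq2 passed 6. An unadjusted p under 0.05 was found for 11 of the 42 members and 3468 of the 16541 genes tested, and a value below 0 for 35 of the 42 and 54.3% of all genes. The smallest adjusted p was 0.0572 for *Xaf1*, at -0.81 ± 0.24, followed by *Ddx58* at -0.71 ± 0.22 (adjusted p = 0.0766). Without PP soluble OVA replicate 3 the test passed 4 members and without spleen PBS replicate 1 it passed 1. The falls of *Ddx58* and *Samd9l* with soluble OVA were thus not shown to differ between the tissues in the fit of all 12 libraries.

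The rest of the pathway was read from lists of 99 further genes, of which 97 were in the table. Of the 21 genes of interferons in the table, 18 were at 0 counts in all 18 libraries, 20 had at most 3 counts in any library, and *Ifng* had up to 10 counts, so no interferon passed the filter. The receptors and their kinases were measured in full. In PPs soluble OVA lowered 5 of the 9 compared with PBS and raised 0, and *Ifnar1*, a chain of the type I receptor, stood at 131, 159, and 119.5 CPM with PBS, 71.4, 62.8, and 66.5 CPM with soluble OVA, and 107, 149.7, and 145 CPM with OVA NPs. Its soluble OVA libraries were below all others, with -1.04 ± 0.10 against PBS (adjusted p = 1.69e-04). In all, soluble OVA lowered 32 of 75 pathway genes tested in PPs and raised 0, with a median of -0.33, where 13.9% of all genes were called lower and 13.5% higher. OVA NPs compared with soluble OVA raised 32 of 76 and lowered 3, where the shares were 13.8% and 16.3%. The largest changes against PBS were those of *Ms4a4c* (-1.56 ± 0.13, adjusted p = 9.02e-05), the DNA-binding HIN-200 genes *Ifi204* (-1.51 ± 0.23, adjusted p = 0.00144), *Mndal* (-1.47 ± 0.18, adjusted p = 0.00179), and *Ifi203* (-1.34 ± 0.20, adjusted p = 0.00403), *Slfn8* (-1.34 ± 0.22, adjusted p = 0.00601), and *Pml* (-1.27 ± 0.11, adjusted p = 9.16e-05), whose protein forms the bodies that SP100 joins. Against soluble OVA, OVA NPs were higher by 1.45 ± 0.16 for *Mndal*, 1.43 ± 0.24 for *Ifi204*, 1.26 ± 0.15 for *Ifi203*, 1.19 ± 0.16 for *Slfn8*, 1.14 ± 0.34 for *Cgas*, the DNA sensor, and 1.11 ± 0.17 for *Ms4a4c*. The *Cgas* call was lost in 5 of 6 fits with a library left out. OVA NPs compared with PBS in PPs changed 0 of 75 pathway genes. The same marker lists moved as for the members, and their part was not tested.

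In spleen, OVA NPs raised 9 and lowered 11 of 74 pathway genes compared with PBS (8.60% and 6.35% of all genes), and soluble OVA raised 6 and lowered 19 (10.5% and 6.72%). The inhibitors *Socs1* and *Socs3*, which end cytokine signaling, rose in both, *Socs3* by 1.89 ± 0.12 with soluble OVA (adjusted p = 1.99e-07) and by 0.99 ± 0.14 with OVA NPs (adjusted p = 2.20e-04), and *Socs1* by 1.47 ± 0.15 and 1.10 ± 0.16. *Socs3* read 7.71, 9.40, and 11.0 CPM with PBS, 35.7, 31.0, and 37.0 CPM with soluble OVA, and 20.7, 18.6, and 16.3 CPM with OVA NPs, so the 3 groups did not overlap. With OVA NPs *Ly6a* (1.35 ± 0.36), *Parp12* (0.85 ± 0.27), and *Ifitm1* (0.78 ± 0.24) rose and *Ifi204* (-0.52 ± 0.10) fell. Of these calls, those of *Ly6a*, *Parp12*, and *Ifitm1* were lost in 4, 5, and 4 of 6 fits with a library left out. With soluble OVA *Ifitm1* (1.08 ± 0.21) rose, and *Ifnlr1*, a chain of the type III receptor (adjusted p = 0.00783), *Tlr3*, a sensor of double-stranded RNA (-0.78 ± 0.14), and *Trim34a* (-0.59 ± 0.10) fell. Between OVA NPs and soluble OVA, *Socs3* was lower by -0.90 ± 0.11 (adjusted p = 0.00419). Between tissues, 40, 45, and 34 of 75 pathway genes were called lower in PPs with PBS, soluble OVA, and OVA NPs, where 20.1%, 24.3%, and 15.1% of all genes were, and 9, 4, and 6 were called higher, where the shares were 25.5%, 26.7%, and 22.0%.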

How the data were processed

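RNA from B cells of 18 libraries was sequenced after poly(A) selection. The authors trimmed reads with cutadapt 2.3, aligned them to GRCm38 with STAR 2.7.8a, and deposited RSEM 1.3.3 expected counts per gene, which were whole numbers in all libraries, so nothing was rounded. Groups follow the labels. Counts were tested with edgeR 4.0.16 in R 4.3.3 (robust quasi-likelihood F test, TMM, its default filter, 10 counts at the median depth and 15 in total), on the 6 libraries compared or on 12 for interactions, with Benjamini-Hochberg adjustment over all genes tested. Values after ± are standard errors, and called genes passed 0.05 after adjustment with a log2 change of more than 0.25 either way, interactions by the former alone. Where nothing states separate mice, p-values measure the spread between libraries only. Members and lists were chosen with earlier results of these data known. Members are shown by library if called in a treatment comparison or interaction, or if among the 5 with the largest tissue difference in PBS controls. Up to 6 pathway genes with the largest change were named per comparison. *Ifit2*, *Ifit3*, *Mx1*, and *Ifnar1* were shown after their values were seen. Alternatives were DESeq2 1.42.0, its size factors, other filters, more libraries in the fit, immunoglobulin genes left out, no fold cutoff, a replicate block, and each library left out. The scripts were tested on simulated data. A withheld item is not reported here.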

Additional observations from a re-analysis of the deposited data

Results flagged for a closer look

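These results were flagged by the test of the difference itself, the interaction of tissue and treatment in edgeR. It asks whether the effect of a treatment differed between PPs and spleen. Each value is the log2 fold change in PPs minus that in spleen. For OVA NPs against PBS, the exonuclease gene *Isg20* was the only one of the 42 genes to pass, at -0.67 (adjusted p = 0.0496). Over all genes 734 of 16619 (4.42%) passed, 3.54% below 0 and 0.872% above. Of the 76 other pathway genes tested, 3 passed. The inhibitor *Socs1* passed at -1.09 (adjusted p = 0.0244), and the immunoproteasome genes *Psmb8* and *Psmb9* at -0.33 (adjusted p = 0.0475) and -0.44 (adjusted p = 0.0117).

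For soluble OVA against PBS, 14 pathway genes passed, all below 0, and 0 of the 42 members. Over all genes 1131 of 16541 (6.84%) passed, of which 838 (5.07% of all genes) were below 0 and 293 above. The chains of interferon and related cytokine receptors among them were *Ifnar1* at -0.68 (adjusted p = 0.00415), *Ifnar2* at -0.50 (adjusted p = 0.00595), *Ifngr2* at -1.08 (adjusted p = 4.19e-05), and *Il10rb* at -0.70 (adjusted p = 4.44e-04). The inhibitors *Socs3* and *Socs1* stood at -2.44 (adjusted p = 4.00e-06) and -1.09 (adjusted p = 0.0175). The kinase gene *Ikbke* was at -0.71 (adjusted p = 0.0233), *Pml* at -0.99 (adjusted p = 3.64e-04), *Uba7*, the activating enzyme of ISG15, at -0.32 (adjusted p = 0.0410), and *Epsti1* at -0.41 (adjusted p = 0.0289). *Ms4a4c* had -1.08 (adjusted p = 3.95e-04), and the HIN-200 genes *Ifi203*, *Ifi204*, and *Mndal* had -0.85 (adjusted p = 0.0377), -1.10 (adjusted p = 0.0180), and -1.11 (adjusted p = 0.00798). Both interactions use the same PBS libraries.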

How the results depend on the processing

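Over the single genes, 10039 values kept their side of the threshold under the alternatives, 153 passed that had not, and 526 no longer passed. Among values called in the main or the alternative fit, 0 reversed. Direction was not followed for values called in neither. Of the 42 genes, soluble OVA against PBS in spleen had 7 called and 12 without a filter on low counts, and in PPs 8 and 15. OVA NPs against soluble OVA in spleen had 0 called, 1 with DESeq2, and 9 without the filter. The interaction for OVA NPs had 1, but 2 with DESeq2, 0 with its size factors in edgeR, and 2 with at least 10 counts in every library. The interaction for soluble OVA had 0, but 6 with DESeq2, 1 without the filter, and 3 with at least 10 counts. The cause was not tested. Leaving out each library in turn gave 4 to 8 called members for OVA NPs and 4 to 14 for soluble OVA against PBS in spleen, 0 to 0 between the OVA treatments there and for OVA NPs against PBS in PPs, 4 to 10 for soluble OVA against PBS and 8 to 15 between the OVA treatments in PPs, 14 to 27, 21 to 33, and 21 to 28 between tissues with PBS, soluble OVA, and OVA NPs, and 0 to 1 and 0 to 4 for the interactions. Where 1 group was left with 2 libraries, the spread was still shared over the fit. Over all genes, the interaction for OVA NPs had 734 called and 1290 with DESeq2 (19.8% and 32.2% of them higher), that for soluble OVA 1131 and 1816, and OVA NPs against soluble OVA in spleen 33, 105 with DESeq2, and 230 without the filter. OVA NPs against PBS in PPs had 0, 149 with DESeq2, 146 without the filter, and 1 with all libraries of the tissue in the fit. *Rsad2* had 8 to 45 counts and *Oasl2* 11 to 102 over the 18 libraries.

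The sources do not say whether libraries with the same replicate number share a mouse. With 3 libraries per group, correlations between them cannot settle it. No comparison had all 3 correlations of same-numbered libraries above 0.1 (-0.31 to 0.30), and in no comparison did every library correlate best with its own number. Between PPs and spleen of soluble OVA–treated mice, 2 of 3 did. With the replicate number as a block, 7 members were called between the OVA treatments in PPs in place of 11, 0 in the interaction for OVA NPs in place of 1, and 6, 8, 0, 0, and 6 in the other treatment comparisons, in the order of OVA NPs, soluble OVA, and the pair in spleen and OVA NPs and soluble OVA in PPs. Between tissues with PBS, soluble OVA, and OVA NPs the block gave 25, 33, and 23 members in place of 17, 28, and 28. Over all genes it gave 3119 in place of 4697 between the OVA treatments in PPs and 429 in place of 734 in the interaction for OVA NPs.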
